A study of Mus musculus with 54 samples.

Results

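The p53 pathway genes are 33 genes that encode p53, the proteins that hold it in check and the products of genes it is known to switch on. They were chosen by gene symbol, and all 33 were found among the 19068 genes of the expression table. Of these, 30 had a mean of at least 1 TPM (a transcript level scaled to transcript length and library size) over all libraries and were tested. Eda2r, Gtse1 and Psrc1 lay under that floor and are given by their values.

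The RNA came from late proximal tubules, the S3 segment, of kidneys of male DBA mice aged 14 weeks. Tubules that bound the lectin LTL and lacked the early-tubule glucose carrier SGLT2 were taken by laser capture, 70 to 80 per sample. The Akita mice carry a dominant mutation in 1 copy of the insulin gene Ins2 (Ins2 Akita/+), a model of type 1 diabetes, and their nondiabetic littermates were Ins2+/+. Each kind was wild type or knockout (Sglt1-/-) for Sglt1, the gene Slc5a1, which encodes the glucose carrier of the S3 segment. Treatment lasted 2 weeks in every group. The Akita groups were knockout on dapagliflozin, knockout on vehicle, wild type on semaglutide, wild type on dapagliflozin and wild type on vehicle. The nondiabetic groups were knockout on dapagliflozin, knockout on vehicle, wild type on dapagliflozin and wild type on vehicle. Dapagliflozin, an SGLT2 inhibitor, was given at 10 mg per kg of diet, and semaglutide, a GLP-1 receptor agonist, by subcutaneous injection at 3 nmol per kg per day. The table held 52 libraries, 5 each for wild-type Akita mice on dapagliflozin and on semaglutide and 6 for each of the other groups. The labels do not say whether each library is a separate animal, so p-values measure the spread between these samples. The cell type or promoter through which the knockout was made is not given in the labels.

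The transcription factor p53 accumulates when DNA is damaged or the cell is otherwise stressed, mainly because it escapes Mdm2, the ubiquitin ligase that marks it for destruction. Stabilised p53 binds response elements near its target genes and raises their transcription. The targets halt the cell cycle, promote cell death, repair DNA, adjust metabolism or feed back on p53, and Mdm2 is itself a target. The control is largely on the p53 protein, so the Trp53 transcript can stay level while the targets move. In the kidney, proximal tubule cells are a known site of p53 activity after injury.

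Slc5a1 was at 27.3 TPM or more in the 28 wild-type libraries and at 1.34 TPM or less in the 24 knockout libraries, as the labels say. Slc5a2, which encodes SGLT2, was present at 3.93 to 205 TPM. Markers of the thick ascending limb were present in every group, at summed levels of 346 to 4482 TPM per library, and Cd3e, the lymphocyte marker with values in the table, was at most 2.59 TPM. The sum of TPM over all genes was 984393 to 2253870 per library, above 1000000, the value to which TPM add up by definition, in 51 of 52 libraries. Mitochondrial ribosomal RNA made up 20.3 to 52.3% of that sum. The libraries of wild-type Akita mice on vehicle had sums of 1596044 to 2250917, against 984393 to 1954588 in wild-type nondiabetic mice on vehicle. No source used here gives the reads behind a library, and no counting error is stated.

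The promoters of 4 members that were higher in Akita tubules are shown, since p53 acts through response elements near its targets. They are the 250 bases before a transcription start in the RefSeq promoter table (build GRCm38.p6), read 5′ to 3′ on the gene's strand. Cdkn1a (chr17:29090729-29090978, plus strand) and Ckap2 (chr8:22185820-22186069, minus strand) hold a match to the p53 response element, made of 2 half-sites of 10 bases, and the capitals mark both half-sites. Ccng1 (chr11:40755287-40755536, minus strand) and Mdm2 (chr10:117710759-117711008, minus strand) hold a single exact half-site, in capitals.
Cdkn1a: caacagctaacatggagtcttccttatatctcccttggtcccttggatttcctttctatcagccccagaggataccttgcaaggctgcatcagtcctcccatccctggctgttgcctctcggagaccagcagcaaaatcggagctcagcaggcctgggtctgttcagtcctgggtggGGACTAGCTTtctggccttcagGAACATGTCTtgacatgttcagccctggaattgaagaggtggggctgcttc
Ckap2: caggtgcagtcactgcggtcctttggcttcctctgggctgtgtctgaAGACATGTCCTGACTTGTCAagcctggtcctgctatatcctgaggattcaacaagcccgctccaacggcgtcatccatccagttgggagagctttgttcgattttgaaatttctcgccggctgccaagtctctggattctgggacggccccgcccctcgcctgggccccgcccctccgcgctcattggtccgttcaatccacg
Ccng1: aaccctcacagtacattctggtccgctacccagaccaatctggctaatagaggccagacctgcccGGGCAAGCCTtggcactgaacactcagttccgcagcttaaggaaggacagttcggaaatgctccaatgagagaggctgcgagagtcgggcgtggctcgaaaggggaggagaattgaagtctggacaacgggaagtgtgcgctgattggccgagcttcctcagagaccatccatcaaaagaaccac
Mdm2: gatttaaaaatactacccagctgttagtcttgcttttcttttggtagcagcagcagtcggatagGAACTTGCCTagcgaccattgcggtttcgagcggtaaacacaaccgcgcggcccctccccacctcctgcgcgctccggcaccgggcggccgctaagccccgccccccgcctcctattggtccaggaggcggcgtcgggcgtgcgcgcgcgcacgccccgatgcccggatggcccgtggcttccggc

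The search used the p53 consensus half-site, whose sequence reads the same on both strands. An element was a pair of half-sites with a spacer of 0 to 13 bases and at most 3 mismatches in 20. The Cdkn1a element had 0 mismatches, began 73 bases before the start and lay at 1 of 2 starts that RefSeq lists for the gene. Its half-sites GGACTAGCTT and GAACATGTCT, the pair with the fewest mismatches, are separated by a spacer. GAACATGTCT is also followed directly by tgacatgttc, which departs from the half-site only at its first base, so an unmarked abutting pair lies there too. The half-sites of Ckap2 abut, begin 203 bases before the start and hold 2 mismatches. Of the 33 members, 25 had an entry, and 9 of these 25 held an element at a listed start. Counted by start, 9 of 35 member promoters (25.7%) held one, against 1847 of all 32851 promoters (5.62%). The other members with an element were Bax and Sesn1 with 2 mismatches and Aen, Bbc3, Mdm4, Tigar and Trp53 with 3. The members are known p53 targets for the most part, so the share describes the list and bears on no comparison between groups. Phlda3 had no match by these rules in this window, and the best-known p53 elements of Mdm2 lie in its first intron, outside it.

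In wild-type mice on vehicle, Akita tubules had higher levels of 6 p53 pathway genes than nondiabetic tubules: Ccng1, Mdm2, Phlda3, Zmat3, Cdkn1a and Ckap2. No tested member passed as lower. These 6 of 30 tested members passed limma's moderated test, with the threshold at an adjusted p of 0.05 (Benjamini-Hochberg over 15424 genes), where 0.337% of all tested genes were higher and 0.0519% were lower. The median change of the members was 0.29 on the log2(TPM + 1) scale, against 0.05 over all tested genes. At an unadjusted p under 0.05, 15 members were higher and 1 was lower, against 6.61% and 3.60% of all genes. The tubules are bulk samples, so fewer cells of a type and less RNA per cell cannot be told apart.

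The members' median lay above that of all genes under each scaling tried, although both moved. As deposited, 19 of 30 members changed by more than the median gene, and so did 19 of 30 after rescaling by the median ratio. With each library rescaled to a sum of 1000000, the median of all genes was -0.30 and that of the members -0.03, and 18 of 29 members lay above the median of all genes. With mitochondrial ribosomal RNA left out of that sum the median was -0.18, and 19 of 30 members lay above it. For 7 members, none of them past the threshold (Sesn1, Pmaip1, Fas, Rrm2b, Polk, Ercc5 and Xpc), the change was above 0 as deposited and below 0 after rescaling to 1000000. Of the tested members, 14 of 30 had their highest group mean in wild-type Akita mice on vehicle, against 12.1% of all tested genes. The 14 include Ckap2, which was over the floor of 1 TPM only through this group and adds no support to this count.

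**Figure D1:**
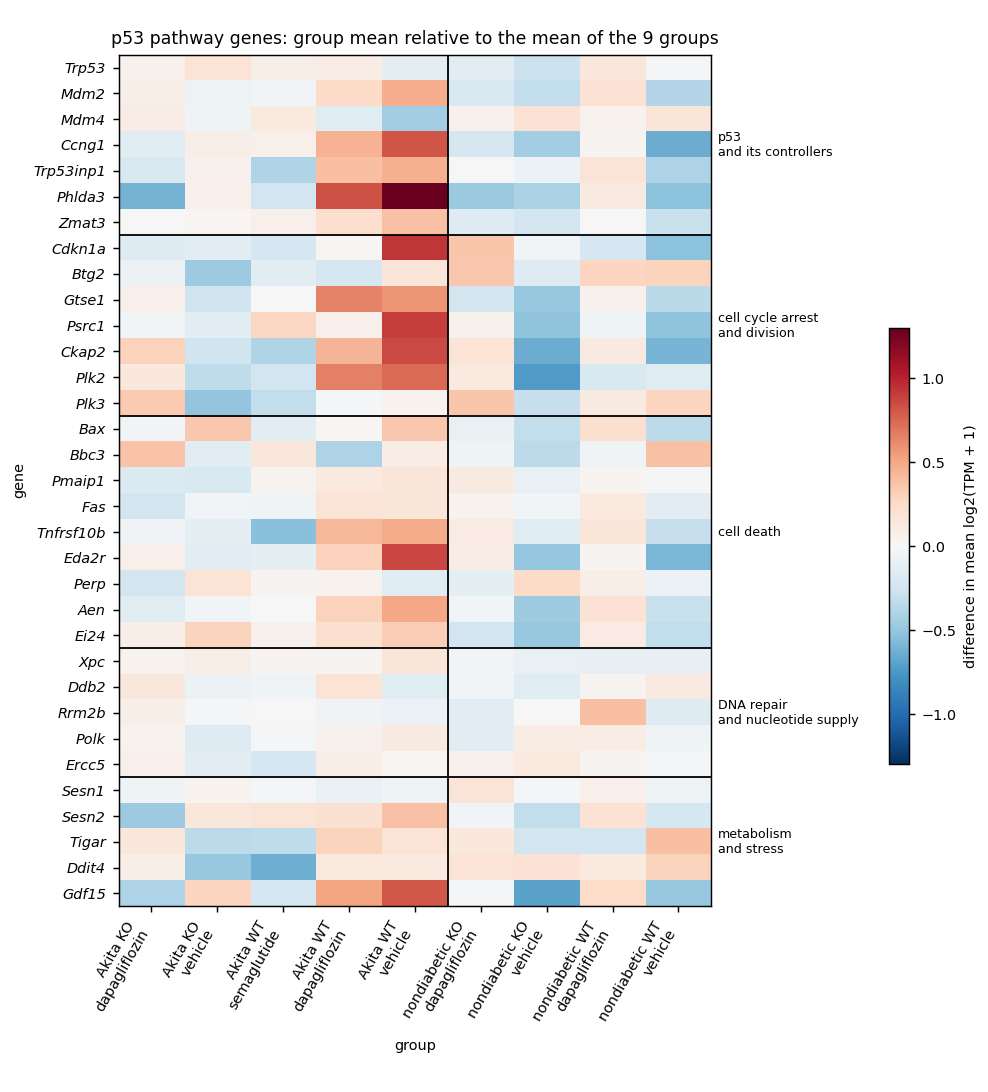
Group means of the 33 p53 pathway genes in the 9 groups, as the difference in mean log2(TPM + 1) from the mean of the 9 groups (red higher, blue lower), with genes ordered by role and Akita groups left of the black line. Among others, Ccng1, Phlda3, Cdkn1a, Ckap2, Eda2r and Psrc1 each have their deepest red in wild-type Akita mice on vehicle, while Mdm4 is blue there.

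In the annotation of build GRCm38, 4 of the called members are grouped here as p53 and its controllers. They lie at chr11:40748552-40755311 (Ccng1, minus strand), chr10:117688875-117710758 (Mdm2, minus strand), chr1:135766119-135769136 (Phlda3, plus strand) and chr3:32334792-32366014 (Zmat3, minus strand). Cdkn1a lies at chr17:29090976-29100727 (plus strand), Ckap2 at chr8:22168160-22185819 (minus strand) and Ei24 at chr9:36779159-36797393 (minus strand). Trp53 itself lies at chr11:69580359-69591873 (plus strand) and Mdm4 at chr1:132959484-133030561 (minus strand).

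Of the 7 members grouped as p53 and its controllers, 4 were higher in Akita tubules and 0 were lower. This group holds Trp53 itself, and also Phlda3, whose product acts on the kinase Akt. Ccng1 encodes cyclin G1, a target that recruits a phosphatase to Mdm2. Its level was 66.95, 89.9 and 113 TPM (lowest, median and highest library) in wild-type Akita mice on vehicle, against 20.0, 30.5 and 54.2 TPM in nondiabetic mice. Every Akita library lay above every nondiabetic one, and the difference was 1.47 ± 0.24 (log2, SE; limma adjusted p = 0.000306, n = 6 and 6).

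Mdm2 had 72.9, 86.3 and 108 TPM in wild-type Akita mice on vehicle, against 43.5, 46.7 and 53.1 TPM in nondiabetic mice. The groups did not overlap, and the nondiabetic libraries lay within a narrow band. Mdm2 was higher by 0.85 ± 0.15 (limma adjusted p = 0.000727). Phlda3, which encodes a small lipid-binding protein that restrains the kinase Akt, had 5.53, 8.91 and 12.6 TPM in Akita mice, against 0.475, 2.18 and 2.96 TPM in nondiabetic mice. The groups did not overlap, and this was the largest log2 difference of the 4, at 1.82 ± 0.39 (limma adjusted p = 0.0121). Zmat3, an RNA-binding zinc finger protein, had 10.4, 10.8 and 14.3 TPM in Akita mice, against 4.97, 6.94 and 9.15 TPM in nondiabetic mice. The Zmat3 groups also did not overlap, at 0.67 ± 0.15 (limma adjusted p = 0.0193). Zmat3 did not pass without nondiabetic replicate 2 or 6 or Akita replicate 1 or 5, with an adjusted p of up to 0.0952 in limma.

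Trp53, the gene of p53 itself, had 11.8, 15.9 and 20.8 TPM in wild-type Akita mice on vehicle, against 11.9, 18.4 and 22.6 TPM in nondiabetic mice. The groups overlapped over nearly their whole range, with a change of -0.10 (95% interval -0.54 to 0.33, limma adjusted p = 0.906). Mdm4, a partner of Mdm2 that blocks p53 from activating genes, had 74.4, 88.3 and 140.5 TPM in Akita mice, against 107, 166 and 183 TPM in nondiabetic mice. Of the 6 Akita libraries, 4 lay below all nondiabetic ones, and the change of -0.61 ± 0.20 did not pass (limma adjusted p = 0.182). Wild-type Akita mice on vehicle had the lowest Mdm4 mean of the 9 groups. Trp53inp1, a stress protein that assists p53, had 13.3 ± 2.24 TPM in Akita mice and 7.17 ± 2.81 TPM in nondiabetic mice (SD), a change of 0.86 that did not pass (limma adjusted p = 0.261). Its group means spanned 7.17 to 14.3 TPM.

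**Figure D2:**
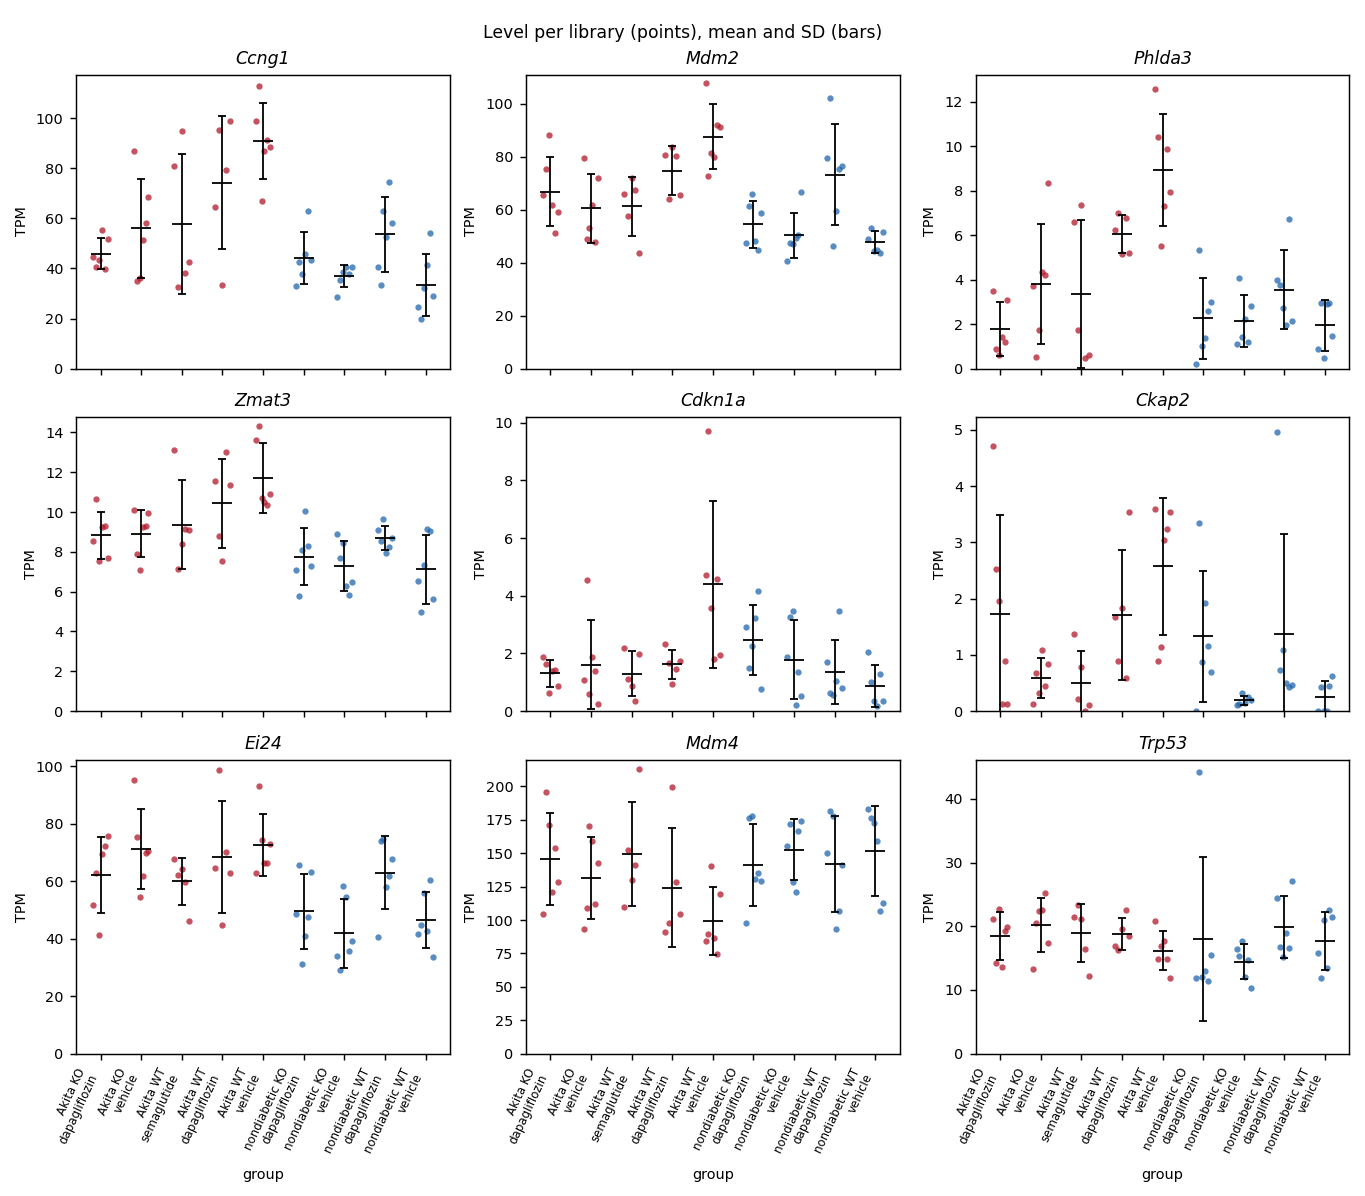
Levels (TPM) of the 7 members that passed a test in at least 1 comparison and of Mdm4 and Trp53 in every library (points) of the 9 groups, with mean and SD (bars, not drawn below 0), Akita groups in red left of nondiabetic groups in blue. Ccng1, Mdm2, Phlda3, Zmat3 and Ckap2 of wild-type Akita mice on vehicle lie wholly above those of wild-type nondiabetic mice on vehicle, and 1 library stands apart for Trp53 at 44.2 TPM.

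Of the members that act on the cell cycle, 2 of 5 tested were higher in Akita tubules, and these were an arrest gene and a division gene. Cdkn1a encodes p21, the inhibitor of cyclin-dependent kinases through which p53 halts division. It was low in all libraries, at 1.80, 4.09 and 9.71 TPM in wild-type Akita mice on vehicle, against 0.188, 0.685 and 2.05 TPM in nondiabetic mice. The groups overlapped, with 4 of 6 Akita libraries above all nondiabetic ones, and the difference was 1.46 ± 0.34 (limma adjusted p = 0.0253). Without the highest library, Akita replicate 5, the adjusted p was 0.142, and Cdkn1a also did not pass without Akita replicate 1 or 4 or nondiabetic replicate 3, 4 or 6.

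Ckap2 encodes a spindle protein that dividing cells make. Its Akita libraries had 0.893, 1.15, 3.04, 3.23, 3.53 and 3.59 TPM, against 0.42, 0.444 and 0.632 TPM in 3 nondiabetic libraries and no listed value, taken as 0, in the other 3. The groups did not overlap (1.46 ± 0.35, limma adjusted p = 0.0325). Over all 52 libraries Ckap2 averaged 1.14 TPM, and without this group 0.949 TPM, so it was tested only through the group in which it was high. Its call has that filter behind it and adds no support to the count, and the other 5 called members were over the floor without this group too. It did not pass the test without Akita replicate 1, 3, 4 or 6 or nondiabetic replicate 1, 2, 3 or 4, with an adjusted p of up to 0.0979 in limma.

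Gtse1 and Psrc1, which encode further microtubule proteins of dividing cells, lay under the floor. Gtse1 had 0.993, 1.77 and 2.15 TPM (lowest, median and highest) in wild-type Akita mice on vehicle, against 0, 0.39 and 0.842 TPM in nondiabetic mice. Psrc1 had 0.417, 2.12 and 4.59 TPM in Akita mice, against 0, 0.0644 and 0.326 TPM in nondiabetic mice. Neither gene's groups overlapped. In a fit with no floor, Gtse1 (limma adjusted p = 0.0201) and Psrc1 (limma adjusted p = 0.0253) both passed. The share of all genes that passed or did not overlap with no floor is not given here. Both genes were low, and Psrc1 was at 0 in 16 libraries, so nothing is read from these calls.

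Plk2, a polo-like kinase induced under stress, had 25.9, 29.7 and 34.7 TPM in wild-type Akita mice on vehicle, against 10.97, 15.1 and 22.6 TPM in nondiabetic mice. Its groups did not overlap, but the difference of 0.89 ± 0.29 did not pass over all genes (limma adjusted p = 0.184), and its group means spanned 10.7 to 29.8 TPM. Btg2, which slows proliferation, had 7.40 ± 3.07 TPM in Akita mice and 9.76 ± 7.14 TPM in nondiabetic mice, with group means of 4.42 to 9.76 TPM. Plk3, a kinase of the same family as Plk2, had 11.2 ± 4.91 TPM in Akita mice and 17.2 ± 15.9 TPM in nondiabetic mice, with group means of 6.85 to 17.6 TPM. Neither passed (limma adjusted p = 0.937 for Btg2 and 0.903 for Plk3).

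Of the 8 tested cell death members, 0 passed limma's test in this comparison and 4 were higher at an unadjusted p under 0.05. Ei24, an endoplasmic reticulum protein linked to cell death and autophagy, had 62.7, 69.7 and 93.0 TPM in wild-type Akita mice on vehicle, against 33.8, 43.8 and 60.4 TPM in nondiabetic mice. The groups did not overlap (0.64 ± 0.18, limma adjusted p = 0.108). Tnfrsf10b, the mouse death receptor for TRAIL, had 3.03 ± 1.10 TPM in Akita mice and 1.34 ± 0.605 TPM in nondiabetic mice (limma adjusted p = 0.0887). Aen, a nuclease that acts in apoptosis, had 27.0 ± 6.72 TPM in Akita mice and 15.6 ± 5.68 TPM in nondiabetic mice (limma adjusted p = 0.0972). Bax, which opens the mitochondrial outer membrane, had 28.6 ± 4.55 TPM in Akita mice and 17.8 ± 5.01 TPM in nondiabetic mice (limma adjusted p = 0.252). Over the 9 groups the means were 0.963 to 3.03 TPM for Tnfrsf10b, 13.2 to 27.0 TPM for Aen and 17.8 to 29.3 TPM for Bax.

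Eda2r, a receptor of the tumour necrosis factor family that lay under the floor, had 0.795, 2.20 and 4.33 TPM in Akita mice, against 0, 0.0971 and 0.238 TPM in nondiabetic mice. Its groups did not overlap, and with no floor its adjusted p in limma was 0.0805. For Eda2r too, no share of all genes with no floor is given here. The classic death genes did not pass the test. Bbc3, the gene of Puma, had 1.84 ± 1.70 TPM in Akita mice and 2.37 ± 1.64 TPM in nondiabetic mice, a change of -0.29. Pmaip1, the gene of Noxa, had 2.18 ± 1.55 TPM in Akita mice and 1.96 ± 1.81 TPM in nondiabetic mice, a change of 0.18. Both genes encode proteins that switch on mitochondrial death. Fas, a death receptor, had 4.89 ± 1.16 TPM in Akita mice and 3.92 ± 1.95 TPM in nondiabetic mice, a change of 0.31, and the small changes of both Pmaip1 and Fas turned sign after rescaling to 1000000. Perp, a membrane protein of cell junctions, had 26.3 ± 4.204 TPM in Akita mice and 30.6 ± 14.8 TPM in nondiabetic mice, a change of -0.08. Adjusted p in limma was 0.816 or higher for these 4. Across the 9 groups the means were 0.861 to 2.45 TPM for Bbc3, 1.45 to 2.83 TPM for Pmaip1, 3.48 to 5.52 TPM for Fas and 25.7 to 35.7 TPM for Perp.

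Of the 5 DNA repair members, 0 passed limma's test and 1, Xpc, was higher at an unadjusted p under 0.05, with a median change of 0.10. Xpc, which finds damaged bases for excision repair, had 68.8 ± 8.20 TPM in wild-type Akita mice on vehicle and 57.6 ± 9.69 TPM in nondiabetic mice, a change of 0.26 (limma adjusted p = 0.473), with group means of 57.3 to 68.8 TPM. Its partner in damage recognition, Ddb2, had 11.96 ± 2.60 TPM in Akita mice and 14.6 ± 3.11 TPM in nondiabetic mice, a change of -0.27, with group means of 11.8 to 15.3 TPM. Rrm2b, a ribonucleotide reductase subunit that supplies nucleotides, changed by 0.10, with group means of 20.7 to 30.0 TPM. Polk, a polymerase that reads past lesions, changed by 0.17, with group means of 20.8 to 25.3 TPM. Ercc5, a nuclease that excises damage, changed by 0.04, with group means of 26.9 to 34.4 TPM. After rescaling to 1000000 the changes of Xpc, Rrm2b, Polk and Ercc5 were below 0.

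Of the 5 metabolism and stress members, 0 passed limma's test and 2 were higher at an unadjusted p under 0.05. Sesn2, a sestrin that restrains the growth kinase complex mTORC1, had 13.8 ± 4.30 TPM in wild-type Akita mice on vehicle and 8.45 ± 1.18 TPM in nondiabetic mice. Its groups did not overlap (0.61 ± 0.23, limma adjusted p = 0.317). Gdf15, a secreted stress hormone, had 2.83, 4.75 and 9.77 TPM in Akita mice, against 0, 1.07 and 5.32 TPM in nondiabetic mice. The Gdf15 groups overlapped (1.30 ± 0.38, limma adjusted p = 0.120). Group means were 7.24 to 13.8 TPM for Sesn2 and 1.20 to 5.46 TPM for Gdf15. The sestrin Sesn1 changed by 0.01 (below 0 after rescaling to 1000000), Tigar, a brake on glycolysis, by -0.22, and Ddit4, another inhibitor of mTORC1, by -0.15. Their group means were 5.08 to 6.31 TPM for Sesn1, 1.79 to 4.42 TPM for Tigar and 4.44 to 9.19 TPM for Ddit4. In all, 8 of 30 tested members had Akita libraries wholly above the nondiabetic ones in this comparison, against 0.571% of all tested genes, and 0 lay wholly below, against 0.162%. The 8 include Ckap2, which was over the floor only through this Akita group and adds no support to this count either.

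Several measures of the libraries moved with this difference. The median sum of TPM was 1808310 in wild-type Akita mice on vehicle and 1431996 in nondiabetic mice, and the median share of mitochondrial ribosomal RNA was 42.1% in Akita and 32.6% in nondiabetic libraries. Endothelial markers summed to 133 to 236 TPM per Akita library and 146 to 275 TPM per nondiabetic library. Of these 7 markers, Vwf alone passed the test, with 1.00 ± 0.429 TPM in Akita mice and 5.10 ± 2.83 TPM in nondiabetic mice (limma adjusted p = 0.00844). Macrophage and dendritic cell markers summed to 98.04 to 186 TPM per Akita library and 136 to 361 TPM per nondiabetic library. Of these, 0 of 8 passed limma's threshold and 2 were lower at an unadjusted p under 0.05, against 3.60% of all genes. Nondiabetic replicates 1 and 2 had the highest scores of other cell types of all libraries, 0.971 and 0.661 (the mean centred log2 level of markers of tubule segments other than proximal, podocytes, endothelium, immune cells and stroma). Tubule injury markers summed to 43.8 to 176 TPM in Akita libraries and 61.8 to 171 TPM in nondiabetic libraries. Adjusted for the sum of TPM, 2 members passed (Mdm2 and Ccng1). Without the 3 libraries highest in the score of other cell types, 3 passed (Mdm2, Ccng1 and Cdkn1a). Ccng1 passed in all 12 alternatives and in each of the 12 fits that left out a library of the 2 groups. Adjusted for the percentage of mitochondrial ribosomal RNA, 4 passed, and Cdkn1a and Ckap2 did not. Whether any of these measures contributed to the difference was not tested.

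The same contrast of Akita with nondiabetic mice called 0 members in limma in each of the other 3 settings. In knockout mice on vehicle 6 members were higher and 0 lower at an unadjusted p under 0.05, against 3.88% and 2.77% of all genes, and limma called 0% of all genes at the adjusted threshold. In wild-type mice on dapagliflozin it was 1 higher and 0 lower, against 1.93% and 1.53% of all genes (0.00648% called). In knockout mice on dapagliflozin it was 0 either way, against 3.12% and 2.00% (0% called). For Ccng1 the change was 0.53 ± 0.24 in knockout mice on vehicle, 0.42 ± 0.25 in wild-type mice on dapagliflozin and 0.07 ± 0.24 in knockout mice on dapagliflozin. For Cdkn1a the changes in the same settings were -0.11, 0.23 and -0.53. Ei24 stood out in knockout mice on vehicle, with 71.3 ± 13.9 TPM in Akita mice and 41.8 ± 11.9 TPM in nondiabetic mice, a change of 0.78 ± 0.18 (limma adjusted p = 0.228). Gdf15 was the member whose groups did not overlap there, with 1.86, 3.10 and 7.29 TPM in Akita mice, against 0.605, 1.19 and 1.78 TPM in nondiabetic mice (0.272% of all genes lay wholly above).

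**Figure D3:**
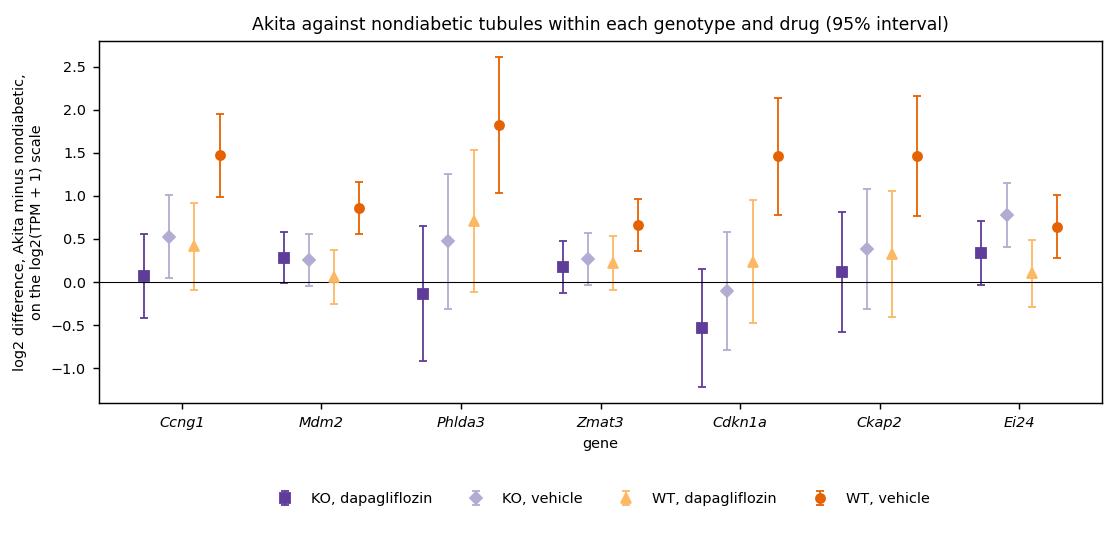
Log2 difference between Akita and nondiabetic tubules, with its 95% interval, for the 7 members that passed a test, within knockout mice on dapagliflozin, knockout mice on vehicle, wild-type mice on dapagliflozin and wild-type mice on vehicle. The 6 genes other than Ei24 were called in wild-type mice on vehicle, so nothing is read from that point being the highest for them, and for Ei24 that of knockout mice on vehicle is.

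Whether the diabetes difference itself varied was tested by interaction terms. For the knockout in vehicle mice, 0 of 30 members passed limma's test (0% of all genes called), and 0 were higher and 6 lower at an unadjusted p under 0.05, against 1.59% and 2.42% of all genes. The term, the diabetes difference in knockouts minus that in wild types, was -1.56 for Cdkn1a (95% interval -2.53 to -0.60, limma adjusted p = 0.999). The term for Ccng1 was -0.94 (-1.63 to -0.26) and for Mdm2 -0.60 (-1.03 to -0.18), both at an adjusted p of 0.999 in limma. As deposited the knockout term was above 0 for 9 of 30 members. With each library rescaled to 1000000 it was above 0 for 14 of 29, where the median of all genes was 0.13. For dapagliflozin in wild-type mice, 0 members passed (0% called), and 0 were higher and 8 lower at an unadjusted p under 0.05, against 1.83% and 2.59% of all genes. As deposited this term was above 0 for 8 of 30 members, and with each library rescaled to 1000000 for 19 of 29, where the median of all genes was 0.51. Its largest term relative to error was that of Mdm2, at -0.79 (-1.23 to -0.36, limma adjusted p = 0.716). No difference between the settings was called. Both terms subtract the wild-type vehicle difference in which Cdkn1a, Ccng1 and Mdm2 were called as higher. That choice favours terms below 0, so nothing is read from the terms of these genes being below 0. With the terms averaged over drug or over genotype, 0 members passed in limma either (0% and 0.00648% of all genes called), and 5 and 9 were lower at an unadjusted p under 0.05, against 1.93% and 2.46% of all genes. The averaged terms subtract that wild-type vehicle difference too. A high value in it thus enters the counts of lower members in every term.

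With the 4 settings given equal weight, Akita and nondiabetic tubules differed in 4 members, all higher, where 0.784% of all genes were higher, 0.182% lower and 0.966% either. Ccng1 had 66.5 ± 24.5 TPM in the 23 Akita libraries and 42.1 ± 13.1 TPM in the 24 nondiabetic ones (0.62 ± 0.12, limma adjusted p = 0.00251). Mdm2 had 72.3 ± 15.4 TPM in Akita and 56.4 ± 14.8 TPM in nondiabetic libraries (0.36 ± 0.08, limma adjusted p = 0.00553). Ei24 had 68.6 ± 14.1 TPM in Akita and 50.2 ± 13.7 TPM in nondiabetic libraries (0.46 ± 0.09, limma adjusted p = 0.00323). Zmat3 had 9.96 ± 1.95 TPM in Akita and 7.71 ± 1.39 TPM in nondiabetic libraries (0.33 ± 0.08, limma adjusted p = 0.0164). Phlda3 (0.72, limma adjusted p = 0.0631) and Plk2 (0.54, limma adjusted p = 0.0554) fell short of the threshold. The libraries of the 2 kinds overlapped for each of the 4. After adjusting for the score of other cell types, 0 of the 4 passed in limma, and the adjusted p was 0.0541 for Ei24 and 0.0824 for Ccng1. Macrophage and dendritic cell markers were lower in the averaged contrast in 6 of 8 cases at an unadjusted p under 0.05, against 4.80% of all genes. Of these markers Laptm5 passed (3.25 ± 1.74 TPM in Akita, 6.39 ± 2.69 TPM in nondiabetic libraries, limma adjusted p = 0.00401).

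Knockout of Sglt1 in Akita mice on vehicle left 0 members past limma's threshold, where 0.0259% of all genes passed. At an unadjusted p under 0.05, 9 members were lower and 1 was higher, against 1.60% and 1.50% of all genes. The median change was -0.36 against 0.00 over all genes, and -0.16 against 0.17 with each library rescaled to 1000000. The lowest and highest libraries of Plk2 were 4.26 and 20.7 TPM in knockout Akita mice (median 15.9), against 25.9 and 34.7 TPM in wild-type Akita mice (median 29.7). These groups did not overlap (-1.08 ± 0.29, limma adjusted p = 0.492), nor did those of Zmat3, and 0.162% of all genes lay wholly below. Mdm2 had 47.6, 57.5 and 79.4 TPM in knockout Akita mice, against 72.9, 86.3 and 108 TPM in wild-type Akita mice (-0.54 ± 0.15, limma adjusted p = 0.545). Ei24 was nearly equal, at 71.3 ± 13.9 TPM in knockout and 72.6 ± 10.9 TPM in wild-type Akita mice (95% interval of the change -0.40 to 0.33), and the sign of its change turned after that rescaling. This contrast shares the wild-type Akita vehicle libraries with the diabetes contrast, so a high value there enters both. The same holds for the contrasts of dapagliflozin and of semaglutide with vehicle in wild-type Akita mice that follow. In nondiabetic mice on vehicle the knockout called 0 members in limma (0.0195% of all genes, 0.0130% lower), with 0 higher and 1 lower at an unadjusted p under 0.05, against 3.31% and 1.89%.

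On dapagliflozin the knockout again called 0 members in limma, in Akita mice (0.0195% of all genes called, 0.0130% lower) and in nondiabetic mice (0.0324% called). At an unadjusted p under 0.05, 5 members were lower in Akita mice (1.59% of all genes) and 2 in nondiabetic mice (3.57%), and 0 were higher (1.71% and 3.37%). Phlda3 of Akita mice on dapagliflozin had 0.613, 1.31 and 3.51 TPM in knockouts, against 5.16, 5.20, 6.22, 6.77 and 6.98 TPM in wild types. The 2 groups did not overlap (0.182% of all genes lay wholly below), and the change of -1.44 did not pass (limma adjusted p = 0.915). Averaged over the 4 settings, 26 of 30 members were lower in knockouts, with a median change of -0.17 against 0.00 over all genes. That split turned with the scaling. Rescaled to 1000000, 17 of 29 members were above 0, with a median of 0.03 against 0.19 over all genes, and without mitochondrial ribosomal RNA in the sum 19 of 30 were below 0, with a median of -0.06 against 0.10. As deposited, 9 members were lower and 0 higher at an unadjusted p under 0.05 (3.42% and 3.79% of all genes), and 0 passed in limma (0.0130% of all genes higher and 0.0389% lower). The nearest was Phlda3 (-0.78, limma adjusted p = 0.144).

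Dapagliflozin called 0 members in limma in any of the 4 backgrounds. In nondiabetic wild-type mice 8 members were higher and 0 lower at an unadjusted p under 0.05, against 4.23% and 2.80% of all genes (0.00648% called). As deposited, 22 of 30 had a change above 0 (median 0.22), and with each library rescaled to 1000000, 12 of 29 did (median -0.10, against -0.31 over all genes). Mdm2 had 46.4, 75.96 and 102 TPM on dapagliflozin, against 43.5, 46.7 and 53.1 TPM on vehicle, with 5 of 6 treated libraries above all vehicle ones (0.57 ± 0.15, limma adjusted p = 0.394). Ccng1 had 33.2, 55.5 and 74.4 TPM on dapagliflozin, against 20.0, 30.5 and 54.2 TPM on vehicle (0.69 ± 0.24, limma adjusted p = 0.574). The sum of TPM moved with these values, at 1632299 to 2100272 on dapagliflozin and 984393 to 1954588 on vehicle, and its part in them was not tested. The vehicle libraries here are also those of the diabetes contrast in wild-type mice, so a low value there enters both contrasts. In Akita wild-type mice 0 members were higher and 1, Cdkn1a, was lower at an unadjusted p under 0.05, against 1.16% and 1.23% of all genes (0% called). Cdkn1a had 0.927, 1.47, 1.66, 1.74 and 2.31 TPM in the 5 dapagliflozin libraries, against 1.80, 4.09 and 9.71 TPM (lowest, median and highest) on vehicle. The change was -0.91 ± 0.36 and did not pass (limma adjusted p = 1.00). In knockout mice, dapagliflozin gave 2 members higher in nondiabetic and 1 lower in Akita mice at an unadjusted p under 0.05, against 2.14% and 1.47% of all genes, and limma called 0% in each. Plk3 had 10.4, 11.4 and 27.8 TPM in knockout Akita mice on dapagliflozin, against 5.72, 6.19 and 9.67 TPM on vehicle. Its groups did not overlap (0.130% of all genes lay wholly above), but the change of 0.86 ± 0.47 did not pass (limma adjusted p = 1.00). Averaged over the 4 backgrounds, 2 members were higher and 0 lower at an unadjusted p under 0.05, against 2.34% and 1.75% of all genes, and limma called 0%. Ccng1 had a wide range in the treated Akita group, with 33.4, 64.6, 79.2, 95.3 and 99.1 TPM in Akita wild-type mice.

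Semaglutide in wild-type Akita mice called 0 members in limma, where 0% of all genes passed. As deposited, 23 of 30 members had a change below 0, the median change was -0.30 against -0.01 over all genes, and 10 were lower and 1 higher at an unadjusted p under 0.05 (2.76% and 2.42% of all genes). Rescaled to a sum of 1000000, the members' median was 0.00 and that of all genes 0.28, and 23 of 29 members lay below the median of all genes. Without mitochondrial ribosomal RNA in that sum, 24 of 30 lay below the median of all genes, which was 0.22. Tnfrsf10b had 0.296, 0.901, 0.999, 1.10 and 1.52 TPM on semaglutide, against 1.62, 2.85 and 4.99 TPM on vehicle. The groups did not overlap, and the change of -1.03 ± 0.23 did not pass (limma adjusted p = 0.122), although it passed with array weights. Mdm2 had 43.7, 57.6, 66.02, 67.2 and 71.97 TPM on semaglutide, below all 6 vehicle libraries (72.9 TPM or more; -0.52 ± 0.16, limma adjusted p = 0.529). Plk2 had 8.995, 9.83, 16.4, 16.6 and 25.6 TPM on semaglutide, also below all vehicle libraries (25.9 TPM or more). In all, 0.383% of genes lay wholly below.

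Phlda3 split the semaglutide libraries, with 0.488, 0.603 and 1.75 TPM in 3 and 6.58 and 7.35 TPM in 2, against 5.53, 8.91 and 12.6 TPM on vehicle (-1.53 ± 0.41, limma adjusted p = 0.395). Ccng1 split the same way, with 32.6, 38.2 and 42.7 TPM in the libraries low in Phlda3 and 80.9 and 94.8 TPM in the others. Ckap2 had 0, 0.101 and 0.224 TPM in the libraries low in Phlda3 and 0.779 and 1.38 TPM in the others. Mdm4, the member higher at an unadjusted p under 0.05, had 109.7, 129.6, 141, 153 and 213 TPM on semaglutide, against 74.4, 88.3 and 140.5 TPM on vehicle (0.58 ± 0.21, limma adjusted p = 0.766). Other measures moved with this split of replicates 2 and 4, high in Phlda3, against replicates 3, 5 and 6. Mitochondrial ribosomal RNA made up 43.3 and 52.3% in the high libraries, against 20.3 to 36.8% in the low ones. Slc5a2 was at 205 and 78.6 TPM in the high libraries, against 15.4 to 20.4 TPM. Markers of the S1 and S2 segments summed to 703 and 440 TPM, against 264 to 310 TPM, and those of the distal convoluted tubule to 436 and 239.8 TPM, against 54.5 to 128 TPM. The part of these measures in the split was not tested. Set against nondiabetic wild-type mice on vehicle, the semaglutide group called 0 members in limma (0.00648% of all genes), with 3 higher and 2 lower at an unadjusted p under 0.05, against 3.20% and 1.66%. There Ccng1 was 0.72 ± 0.25 higher (limma adjusted p = 0.836), in a contrast that shares its nondiabetic libraries with the diabetes contrast. Set against dapagliflozin in the same mice, semaglutide called 0 members in limma (0% of all genes), with 0 higher and 5 lower at an unadjusted p under 0.05, against 1.59% and 1.93%. The largest of these relative to its error was Tnfrsf10b, whose 5 semaglutide libraries lay below all 5 dapagliflozin libraries (2.13, 2.73, 2.73, 3.19 and 3.21 TPM), as 0.344% of all genes did.

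**Figure D4:**
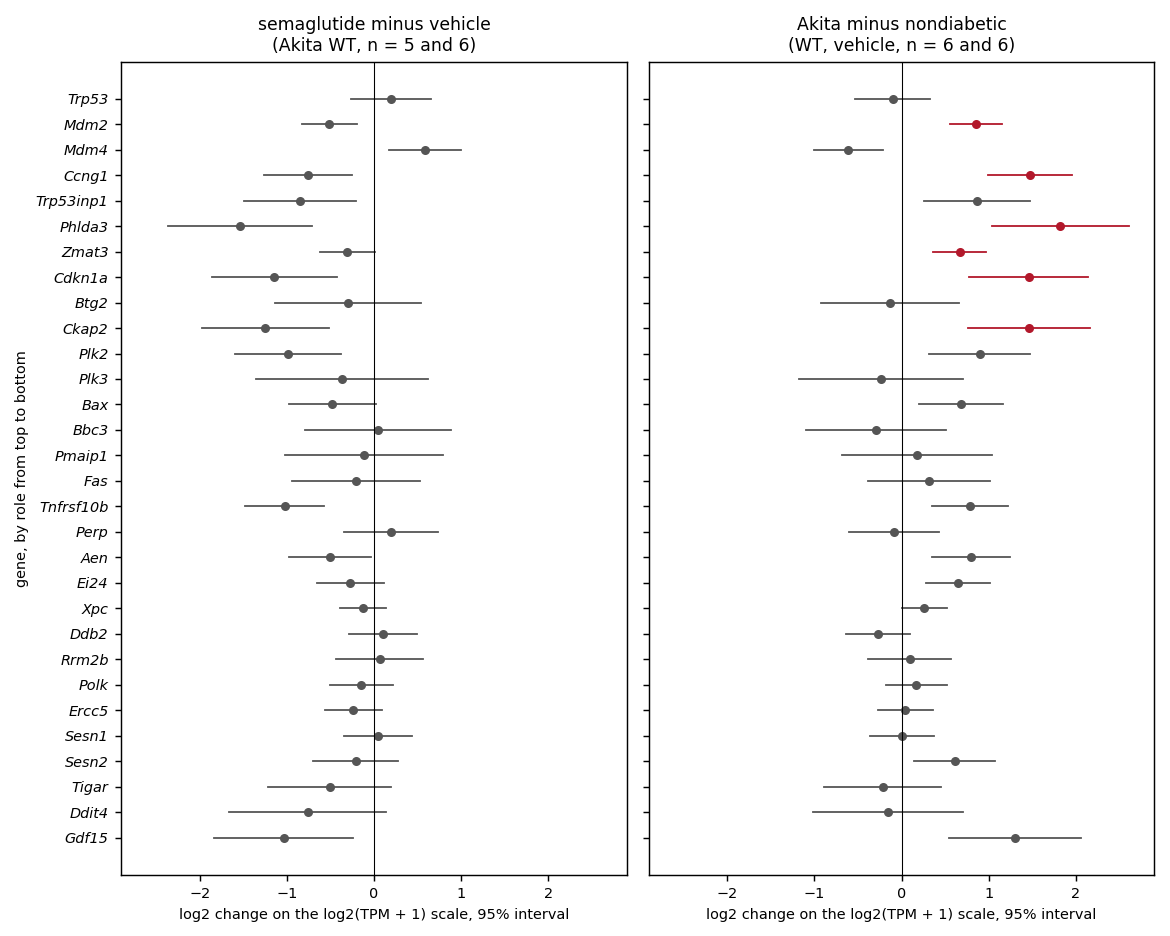
Log2 change of the 30 tested members with its 95% interval, for semaglutide against vehicle in wild-type Akita mice (left; 5 and 6 libraries) and for Akita against nondiabetic wild-type mice on vehicle (right; 6 and 6 libraries), with members past the adjusted threshold in red. The 6 red genes are on the right, and both panels share the wild-type Akita vehicle libraries.

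Knockout Akita mice on dapagliflozin, in which both carriers are blocked, were set against wild-type Akita mice on vehicle. Phlda3 was lower there, the single member past the threshold, where 0.0324% of all genes passed. It had 0.613, 1.31 and 3.51 TPM in knockout mice on dapagliflozin, against 5.53, 8.91 and 12.6 TPM in wild-type mice on vehicle, and the groups did not overlap (-1.90 ± 0.39, limma adjusted p = 0.0390). Ccng1 had 39.8, 43.9 and 55.3 TPM in knockout mice on dapagliflozin, against 66.95, 89.9 and 113 TPM in wild-type mice on vehicle. These groups did not overlap either, though the change of -0.97 ± 0.24 did not pass (limma adjusted p = 0.224). The wild-type vehicle libraries here are those of the diabetes contrast in which Phlda3 and Ccng1 were called as higher. A high value there enters both contrasts, so the 2 are not independent. The groups differed in the sum of TPM, with 1107216 to 1605628 in knockout mice on dapagliflozin and 1596044 to 2250917 in wild-type mice on vehicle. Adjusted for that sum, Phlda3 did not pass (limma adjusted p = 0.923), and it passed in 3 of the 12 fits that left out a library. It was lost without wild-type vehicle replicate 1, 3, 4, 5 or 6 or knockout dapagliflozin replicate 2, 3, 5 or 6, with an adjusted p of up to 0.188 in limma.

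Across the 9 groups, all 7 members that passed a test had their highest mean in wild-type Akita mice on vehicle, as 12.1% of all tested genes did, and nothing is read from this for the 6 that the contrast of that group chose. Wild-type Akita mice on dapagliflozin came next for Ccng1, Mdm2, Phlda3 and Zmat3, with means of 74.3 ± 26.7, 74.7 ± 9.31, 6.06 ± 0.856 and 10.45 ± 2.23 TPM. The lowest mean of Ccng1, Mdm2, Zmat3 and Cdkn1a was that of nondiabetic wild-type mice on vehicle. Phlda3 was lowest in knockout Akita mice on dapagliflozin, and Ckap2 and Ei24 were lowest in nondiabetic knockout mice on vehicle. The ratio of the highest to the lowest group mean was 2.71 for Ccng1, 1.83 for Mdm2, 1.65 for Zmat3, 1.74 for Ei24 and 1.41 for Trp53. Neighbours in the order often differed by less than their spread. The Ccng1 means of semaglutide-treated Akita mice (57.8 ± 28.0 TPM), knockout Akita mice on vehicle (56.1 ± 19.8 TPM) and nondiabetic wild-type mice on dapagliflozin (53.7 ± 15.04 TPM) differed by less than 1 SD of any of them.

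The remaining levels are given as lowest, median and highest library. Ccng1 had 35.2, 54.9 and 86.7 TPM in knockout Akita mice on vehicle, 33.0, 42.95 and 63.1 TPM in nondiabetic knockouts on dapagliflozin and 28.6, 38.2 and 40.6 TPM in nondiabetic knockouts on vehicle. Mdm2 had 51.2, 63.5 and 88.3 TPM in knockout Akita mice on dapagliflozin, 63.9, 80.1 and 83.8 TPM in wild-type Akita mice on dapagliflozin, 44.8, 53.6 and 65.9 TPM in nondiabetic knockouts on dapagliflozin and 40.7, 48.4 and 66.5 TPM in nondiabetic knockouts on vehicle. The knockout groups of both genes thus reached into the range of the wild types. Phlda3 had 0.508, 3.96 and 8.34 TPM in knockout Akita mice on vehicle, 0.204, 2.00 and 5.34 TPM in nondiabetic knockouts on dapagliflozin, 1.10, 1.82 and 4.09 TPM in nondiabetic knockouts on vehicle and 1.95, 3.23 and 6.74 TPM in nondiabetic wild types on dapagliflozin. Zmat3 had 7.52, 8.89 and 10.7 TPM in knockout Akita mice on dapagliflozin, 7.08, 9.27 and 10.1 TPM in knockout Akita mice on vehicle, 5.77, 7.70 and 10.04 TPM in nondiabetic knockouts on dapagliflozin, 5.84, 7.10 and 8.88 TPM in nondiabetic knockouts on vehicle and 7.95, 8.62 and 9.66 TPM in nondiabetic wild types on dapagliflozin. Zmat3 had 7.13, 8.38, 9.08, 9.17 and 13.1 TPM on semaglutide and 7.53, 8.78, 11.3, 11.6 and 13.02 TPM in wild-type Akita mice on dapagliflozin. Of the 7 called genes, Zmat3 had the lowest ratio of highest to lowest group mean.

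Cdkn1a stayed under 5 TPM in all groups but wild-type Akita mice on vehicle. It had 0.641, 1.41 and 1.87 TPM in knockout Akita mice on dapagliflozin, 0.238, 1.22 and 4.55 TPM in knockout Akita mice on vehicle and 0.348, 0.876, 1.10, 1.98 and 2.18 TPM on semaglutide. In nondiabetic mice it had 0.777, 2.59 and 4.15 TPM in knockouts on dapagliflozin, 0.198, 1.61 and 3.46 TPM in knockouts on vehicle and 0.553, 0.922 and 3.46 TPM in wild types on dapagliflozin. These groups overlapped each other throughout. Ckap2 had 0.119, 1.42 and 4.72 TPM in knockout Akita mice on dapagliflozin, 0.127, 0.561 and 1.09 TPM in knockout Akita mice on vehicle and 0.594, 0.887, 1.68, 1.83 and 3.55 TPM in wild-type Akita mice on dapagliflozin. In nondiabetic mice Ckap2 had 0, 1.02 and 3.35 TPM in knockouts on dapagliflozin, 0.112, 0.165 and 0.324 TPM in knockouts on vehicle and 0.431, 0.614 and 4.96 TPM in wild types on dapagliflozin. The vehicle-treated nondiabetic groups were thus the lowest for Ckap2, with every library under 1 TPM.

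Ei24 had 41.3, 66.1 and 75.8 TPM in knockout Akita mice on dapagliflozin, 54.5, 70.3 and 95.3 TPM in knockout Akita mice on vehicle, 46.2, 59.6, 62.2, 64.2 and 67.6 TPM on semaglutide and 44.9, 63.0, 64.8, 70.3 and 98.8 TPM in wild-type Akita mice on dapagliflozin. In nondiabetic mice it had 31.3, 48.1 and 65.7 TPM in knockouts on dapagliflozin, 29.04, 37.4 and 58.5 TPM in knockouts on vehicle and 40.7, 64.9 and 74.8 TPM in wild types on dapagliflozin. The nondiabetic wild types on dapagliflozin thus lay among the Akita groups. Mdm4 had 105, 141 and 196 TPM in knockout Akita mice on dapagliflozin, 93.3, 128 and 170.0 TPM in knockout Akita mice on vehicle and 90.9, 97.6, 104, 129 and 199 TPM in wild-type Akita mice on dapagliflozin. In nondiabetic mice it had 97.7, 133 and 178 TPM in knockouts on dapagliflozin, 121, 161 and 174 TPM in knockouts on vehicle and 93.4, 146 and 181 TPM in wild types on dapagliflozin. Every group of Mdm4 overlapped every other, that of wild-type Akita mice on vehicle included.

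Trp53 had 13.6, 19.6 and 22.7 TPM in knockout Akita mice on dapagliflozin, 13.3, 21.5 and 25.2 TPM in knockout Akita mice on vehicle, 12.1, 16.4, 21.2, 21.4 and 23.3 TPM on semaglutide and 16.3, 16.8, 18.6, 19.6 and 22.6 TPM in wild-type Akita mice on dapagliflozin. In nondiabetic mice it had 11.4, 12.6 and 44.2 TPM in knockouts on dapagliflozin, 10.4, 14.99 and 17.6 TPM in knockouts on vehicle and 15.2, 17.8 and 27.2 TPM in wild types on dapagliflozin. All 9 groups overlapped, and the group means ran over 14.4 to 20.2 TPM.

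Other genes of the pathway were looked at in the contrast of Akita with nondiabetic wild-type mice on vehicle. There 0.337% of all tested genes passed as higher and 0.0519% as lower, and the median change of all tested genes was 0.05. At an unadjusted p under 0.05, 6.61% of all genes were higher and 3.60% were lower. Of 39 further p53 targets tested, 1 was higher and 0 were lower, with a median change of 0.00. The 1 was Ephx1, an epoxide hydrolase of detoxification, with 58.1 ± 12.1 TPM in Akita mice and 17.9 ± 8.51 TPM in nondiabetic mice (1.73 ± 0.33, limma adjusted p = 0.00305). Of 21 regulators and partners of the p53 protein, 0 passed limma's test, with 0 higher and 1 lower at an unadjusted p under 0.05. Of 18 listed cell cycle genes that p53 lowers through the DREAM complex, 10 were over the floor and tested. Of these 10, 0 passed in limma, 5 were higher at an unadjusted p under 0.05 and the median change was 0.69. Whether any of these genes was over the floor only through wild-type Akita mice on vehicle is not given here, which limits this count. In the averaged diabetes contrast 1 of them, the replication helicase subunit Mcm6, was higher, as 0.784% of all genes were (16.1 ± 3.74 TPM in Akita, 11.6 ± 3.58 TPM in nondiabetic libraries, limma adjusted p = 0.0286). Of 4 other Cdk inhibitors and of 10 genes of the integrated stress response, 0 passed in limma, each list with 0 higher and 1 lower at an unadjusted p under 0.05.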

How the data were processed

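RNA of laser-captured S3 tubules (0.5 ng, DV200 above 30%) was sequenced after SMARTer Stranded Total RNA-seq Pico v3 library preparation, per the labels' protocols. The authors deposited 1 table of log10 TPM for 52 of 54 labelled samples. The genome build was GRCm38, per the submitters' processing notes. No source used here gives the aligner, annotation, scaling or read numbers. Values were returned to TPM as 10 to the deposited power, and the 7.02% of cells that were blank were taken as 0.

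The test took the 15424 genes averaging 1 TPM or more, as log2(TPM + 1), in limma 3.58.1 (R 4.3.3) with 9 group means, trended and robust empirical Bayes, 43 residual degrees of freedom and 23 contrasts, each adjusted over all tested genes. The pseudocount understates changes of low genes. The procedure was tested on simulated data. Members that passed in any contrast are given in every group, with Trp53, Mdm2 and Mdm4, and the others by the range of their group means and their diabetes change. Plk2, Plk3, Tnfrsf10b, Gdf15 and the split of the semaglutide libraries were described in more detail after their values were seen. The members and all lists were chosen with earlier results of these data known. Replicate numbers follow accession order and pair no samples. Gene positions and RefSeq promoters are of GRCm38.

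Alternatives were a pseudocount of 0.1, no floor, rescaling by median ratio (factors 0.879 to 1.06) or to a sum of 1000000, the compared groups alone, covariates for library number and other cell types, array weights and leaving out libraries. Adjusting for the sum of TPM or for mitochondrial ribosomal RNA, and rescaling without it, were chosen after seeing the data. Spata18, Trp53cor1, Trp73 and Cdkn2a were not analysed here.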

Additional observations from a re-analysis of the deposited data

Results flagged for a closer look

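Of 81 group levels of the 9 members described in every group, 3 had a library far from the others of its group, where chance gives about 5 percent. Cdkn1a was 9.712 TPM in replicate 5 of the wild-type Akita mice on vehicle, while the other 5 libraries had 1.801 to 4.711 TPM. Without it the difference between Akita and nondiabetic mice no longer passed (limma adjusted p = 0.142). Ckap2 was 4.958 TPM in replicate 1 of the nondiabetic wild-type mice on dapagliflozin, while the others had 0.4314 to 1.083 TPM. Trp53 was 44.2 TPM in replicate 1 of the nondiabetic knockout mice on dapagliflozin, while the others had 11.4 to 15.46 TPM.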

How the results depend on the processing

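Rescaled to a sum of 1000000, 7 changes under the threshold in wild-type mice on vehicle (Sesn1, Pmaip1, Fas, Rrm2b, Polk, Ercc5 and Xpc) and that of Ei24 between knockout and wild-type Akita mice on vehicle turned sign. In wild-type mice on vehicle, the 6 members higher in Akita tubules became 2 after rescaling to a sum of 1000000 (with or without mitochondrial ribosomal RNA in that sum, Ccng1 and Phlda3), 2 after adjusting for the sum of TPM, 3 with the compared groups alone (Mdm2, Ccng1 and Phlda3) and 3 without the libraries highest in other cell types. They were 3 to 8 with 1 library left out, and the 3 came without Akita replicate 1. Mdm2 passed in 10 of 12 alternatives, Phlda3 in 9 of 12, Ckap2 in 6 of 11, and Cdkn1a and Zmat3 in 5 of 12 each. The 4 members of the averaged contrast became 2 under either rescaling to a sum and 0 after adjusting for other cell types, and 4 to 6 with 1 library left out. Semaglutide had 1 member (Tnfrsf10b) with array weights in place of 0. The 1 member of knockout with dapagliflozin against wild-type vehicle became 0 with a pseudocount of 0.1 and under either rescaling to a sum. It also became 0 after adjusting for the sum of TPM or for the percentage of mitochondrial ribosomal RNA. With the compared groups alone it became 2 (Ccng1 and Phlda3), and with 1 library left out 0 to 1. The member was lost without Akita wild-type vehicle replicate 1, 3, 4, 5 or 6, or knockout dapagliflozin replicate 2, 3, 5 or 6. The causes were not tested. No paired analysis was possible because the labels do not link libraries of different groups by animal or litter. Read depth is unknown, which limits what can be said of members near 0.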
